A study of Homo sapiens with 15 samples.

Results

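The genes described here are 1487 names that the deposited tables list by a plain row alone, in RNA recovered with antibodies against Brg1 or Sfpq from prostate cancer cells. Each table lists a gene by its plain name, by the name with the suffix .primary, or by both. A member has a plain row in the tables of both cell lines and a .primary row in neither of them. That condition held for 1845 names, and the members are those left after removal of hyphenated names, clone names (2 letters, 6 digits and a dot) and 8 families by their prefix (HIST, LINC, NDUF, RN7SL, RPL, RPS, SNOR and ZNF). They make up 1487 of 15990 names with any row. The 6932 names that have both kinds of row in both tables served for comparison, by their plain rows. The sources used here do not say what .primary marks, so whether the plain rows hold mature, spliced RNA alone was not checked.

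The libraries came from 22Rv1 and LNCaP, established human prostate cancer lines grown untreated in serum-containing medium and fixed with formaldehyde. In 22Rv1 there were 2 libraries (A and B) from an antibody to Brg1, 2 from an antibody to Sfpq, 3 (A, B and C) from non-specific IgG and 2 of input, the RNA before precipitation. In LNCaP there were 2 each of Brg1, IgG and input, and Sfpq was not part of that line's set. No group carries a mutation, transgene or drug by its labels, and nothing in them says that the letters stand for separate cultures, so the p-values below measure the spread between libraries, which may be technical. Values are read shares in RPM, reads for every 1000000 reads of the library: each column was divided by its smallest positive value to recover whole reads, which were then taken over the total. Because these are bulk lysates, RNA present in fewer cells and less RNA per cell cannot be told apart.

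The gene SMARCA4 encodes Brg1, which burns ATP to let SWI/SNF complexes slide or evict nucleosomes. Sfpq binds RNA in the nucleus, takes part in splicing and transcription, and is a core protein of paraspeckles, nuclear bodies built on the long noncoding RNA NEAT1. RNA immunoprecipitation pulls a protein out of a lysate with the RNA attached to it, and an RNA is described by its share in the precipitate against its share in the input. Short genes with no or small introns, and RNAs made by RNA polymerase III, have little or no intronic sequence to be read as a precursor.

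The members that were higher with Brg1 included several nuclear noncoding RNAs, and a few sequences show which ones are meant. MIR663A, the only member named for a microRNA hairpin, lies at chr20:26208186-26208278 on the minus strand (RefSeq, GRCh38.p14), inside its host gene MIR663AHG at chr20:26187019-26209233, so reads of the hairpin and of the host cannot be told apart. The mature microRNA, at chr20:26208243-26208264, is shown with its seed (bases 2 to 8) in capitals.
hsa-miR-663a: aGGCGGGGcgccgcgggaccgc
A few long noncoding RNAs with different patterns are shown by the 50 bases before the annotated start in lower case and the first 50 bases of the gene in capitals, on the strand of the gene. MALAT1 (chr11:65497688-65497787, plus strand) and MIR663AHG (chr20:26209184-26209283, minus strand) were higher with Brg1 in 22Rv1 and lower with Sfpq, and NORAD (chr20:36050911-36051010, minus strand) was the reverse.
MALAT1: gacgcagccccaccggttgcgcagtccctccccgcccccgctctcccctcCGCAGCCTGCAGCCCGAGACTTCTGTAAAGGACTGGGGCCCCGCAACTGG
MIR663AHG: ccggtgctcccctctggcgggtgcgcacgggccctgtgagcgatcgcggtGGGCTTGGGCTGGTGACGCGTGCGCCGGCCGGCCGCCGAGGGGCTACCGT
NORAD: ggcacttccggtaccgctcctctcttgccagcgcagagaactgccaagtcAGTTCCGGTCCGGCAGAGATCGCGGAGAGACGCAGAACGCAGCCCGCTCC
Over windows of 300 bases around the start (250 before, 50 after), the letters TATAAA on either strand occurred in 88 of the 1194 members with a window in the RefSeq table (7.37%), in 6.90% of the 5724 names with both rows that have one, and in 14.0% of all 27305 genes. The median GC content of these windows was 64.7% in members and 65.7% in names with both rows. A match is a description of the letters and not a binding site.

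The members were mostly compact protein-coding genes. Of the 1487 names, 1473 matched RefSeq, and the genomic span of those had a median of 8.51 kb (quartiles 3.87 and 32.1 kb), against 41.8 kb (quartiles 20.8 and 86.8 kb) for names with both rows. Spans of at most 2 kb were found for 127 members and for 5 of the names with both rows. By biotype 1388 members were protein-coding, 28 pseudogenes, 28 transcribed pseudogenes and 19 long noncoding RNAs, and 14 had no match. The rest were 6 noncoding RNAs and 1 each of microRNA, snRNA, RNase P RNA and RNase MRP RNA. Not every member is short: 151 spanned over 100 kb, among them ZFHX3 at 1109046 bases. Median input levels were 24.7 RPM in 22Rv1 and 21.1 in LNCaP, and the lowest mean inputs were 1.28 and 2.17.

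Depth set the precision of each library. Recovered reads ran from 7139669 to 47871438 in the 22Rv1 libraries of Brg1, Sfpq and input and from 6367908 to 7506724 in LNCaP, but the IgG libraries held 490879 to 4424105 and only 22184 and 46297. In the LNCaP IgG libraries 1423 and 1352 of the 1487 members were at or under 3 reads, so most single members could not be read there. Plain rows took 34.3% and 37.3% of the reads with Brg1 in 22Rv1, 72.5% and 66.6% with Sfpq and 61.8% and 65.2% in input. In LNCaP they took 49.2% and 39.5% with Brg1 and 57.7% and 64.8% in input. This split moves with every result below, since a member's share is taken over plain and .primary reads together, so the counts or medians of the members and of most gene lists are also given over plain reads alone. Of 9 prostate luminal markers, 6 had a row in 22Rv1 (summed input 226 RPM; KLK2, KLK3 and FOLH1 had none) and 9 in LNCaP (4734). Of 5 leukocyte markers 1 and 0 had a row, and of 5 stromal markers COL1A1, itself a member, was the single one in either line.

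All members together took 8.81% and 8.97% of input reads in 22Rv1, 6.02% and 6.65% with Brg1, 8.20% and 7.64% with Sfpq and 4.68%, 4.95% and 7.52% with IgG. Counting error is small beside these differences: the 95% Wilson interval of the shallowest of them, IgG library C, was 7.44% to 7.59%. Every Brg1 and every Sfpq library lay below both inputs. The ratio of the group means was 0.713 for Brg1 and 0.892 for Sfpq, each with an exact two-sided permutation p of 0.33, the smallest that 2 against 2 libraries can give. IgG against input stood at 0.643 (exact permutation p = 0.2, the smallest for 3 against 2).

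In LNCaP the members took 10.1% and 10.98% of input reads, 9.98% and 8.73% with Brg1 and 5.38% and 6.06% with IgG, with 95% Wilson limits for the IgG libraries of 5.09% to 5.68% and 5.85% to 6.28%. The ratio to input was 0.888 for Brg1 and 0.543 for IgG (exact two-sided permutation p = 0.33 for each). A handful of RNAs carried much of this: RN7SK alone took 1.55% ± 0.0146 (SD, n = 2) of 22Rv1 input and 2.54% ± 0.489 (SD, n = 2) of LNCaP input. Without the 10 members with the most input reads, the ratio was 0.838 for Brg1 in 22Rv1 but 1.14 for Sfpq and 1.09 for Brg1 in LNCaP, the other side of 1. Over plain reads alone the ratios were 1.26, 0.814 and 1.23. A single gene, SMARCA4, took a large part of the members' reads with Brg1. Leaving it out gave 0.553 in 22Rv1 and 0.779 in LNCaP, or 0.605 and 0.877 without the 10 members as well, all below 1. Its removal over plain reads alone gave 0.980 in 22Rv1, below 1, and 1.08 in LNCaP, still above it.

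**Figure D1:**
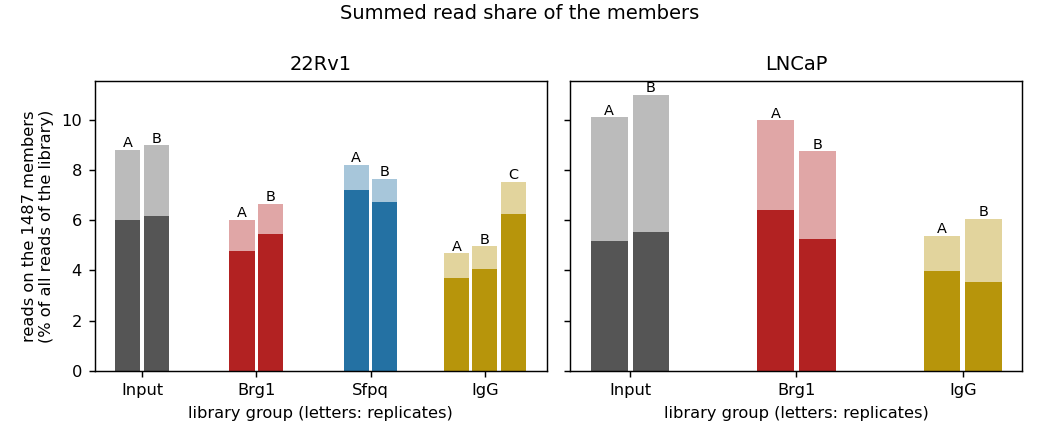
Reads on the 1487 members as a percent of all reads (y axis) in each library, by group (x axis; letters are replicates) in 22Rv1 and LNCaP. The pale upper part of each bar is the 10 members with the most input reads, which shrank from 2.79% in 22Rv1 input to 1.23% with Brg1 and 0.977% with Sfpq.

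The first comparison sets the Brg1 precipitate beside its input. In 22Rv1, 1130 of the 1487 members were lower with Brg1 and 41 were higher (limma, Benjamini-Hochberg adjusted p under 0.05 over all rows), where 40.8% of all rows were lower and 27.8% higher. The median log2 ratio of shares was -0.82 in members, -0.75 in the plain rows of names with both rows (5297 of 6932 lower, 85 higher) and -0.25 in all rows. The members thus stood close to other plain rows and apart from the table as a whole, which includes the .primary rows. When only plain reads were counted, 328 members were lower and 309 higher, with a median of -0.05. A fit that also took in the IgG libraries called 2 members lower and 1 higher, with 109 at an unadjusted p under 0.05.

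In LNCaP 269 members were lower with Brg1 and 39 higher, against 14.0% and 13.0% of all rows. The median log2 ratio was -0.28 in members, -0.27 in plain rows of names with both rows and -0.08 in all rows. These counts depended on single libraries: they were 436 lower and 29 higher without Brg1 library A, 103 and 51 without Brg1 B, 43 and 11 without input A, and 13 and 8 without input B. The balance turned when only plain reads were counted, with 53 lower, 297 higher and a median of 0.17. In the LNCaP fit limma took each row's spread wholly from the trend over all rows (an infinite prior), so its p-values are only as good as that shared spread. Of 30 LNCaP calls on single members tested this way, 21 were lost without input B, among them RN7SK, RPPH1, NEAT1, NORAD, MIR663A, JUND and POLR2J3, 16 without input A, 9 without Brg1 B (RN7SK among them) and 4 without Brg1 A. Those of SMARCA4, KCNQ1OT1, BCYRN1 and MTND1P23 were past the threshold without any 1 library. In 22Rv1 at most 10 of 63 Brg1 calls (without Brg1 A) and 9 of 46 Sfpq calls (without input A) on single members were lost, and C12orf45, C1orf35, PPIAP22, SURF2, CEBPB, DNAJB1, MRPS16, POLR2A, TMEM8B, S100A11, HSPB1, PSMB6, PSMD4, SNRPE, TBCC, CD3EAP, DYNC1H1, ACTB and ALDOA lost a call in this way.

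Sfpq against input in 22Rv1 split the members: 509 were lower and 385 higher, against 36.1% and 24.5% of all rows. Their median log2 ratio was -0.13, that of plain rows of names with both rows 0.30 (2967 of 6932 higher, 1179 lower), and that of all rows -0.19. The split followed the scaling, with 408 lower and 511 higher under median-of-ratios factors, 599 and 324 over plain reads alone, and 443 and 21 at the deposited scaling. The median of members minus that of names with both rows was -0.43 as shares and -0.44 at the deposited scaling. Brg1 and Sfpq share their input libraries, so the precipitates were also set against each other: 837 members were lower and 103 higher with Brg1 than with Sfpq, against 38.1% and 40.1% of all rows, and over plain reads alone 330 were lower and 647 higher.

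As shares of all reads, input level separated the members in 22Rv1 less than did the antibody. Over plain reads alone their medians were -0.05 with Brg1 and -0.26 with Sfpq, and the bins were not redone on that scale. With Brg1 in 22Rv1 the median was -0.45 in the 176 members with an input of 1 to under 10 RPM, -0.88 in the 1184 at 10 to under 100 and -0.75 in the 127 at 100 and over. With Sfpq the same bins stood at -0.01, -0.17 and 0.12. With Brg1 in LNCaP they stood at -0.15 (284 members), -0.32 (1092) and -0.13 (111). Since the input sets both bin and ratio, the bins were also taken from the other line's input, which gave -0.74, -0.86 and -0.62 for Brg1 in 22Rv1, and -0.05, -0.18 and 0.24 for Sfpq. The middle bin was the lowest in each of these, and the bins differed by less than the spread of members within them (quartiles -1.25 and -0.52 in the middle bin of Brg1 in 22Rv1).

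Genomic span separated the members by more, above all with Sfpq. From spans of at most 2 kb through 2 to 5, 5 to 10, 10 to 30 and 30 to 100 kb to over 100 kb, the median log2 ratio of Sfpq against input went from -1.10 through -0.51, -0.29, -0.11 and 0.30 to 0.76. Of the 127 members of at most 2 kb, 82 were lower with Sfpq and 5 higher, and of the 151 over 100 kb, 8 were lower and 114 higher. At the deposited scaling the latter became 8 lower and 7 higher, with a median of 0.26. The span bins were chosen after the values were seen.

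The same order held within members of 10 to under 100 RPM in input, from -1.11 to 0.68. Names with both rows had it too, with -0.68 at 2 to 5 kb and 0.72 over 100 kb. With Brg1 in 22Rv1 members went from -1.19 at the shortest to -0.39 at the longest spans, and in LNCaP from -0.39 to -0.15, while names with both rows over 100 kb were at -0.61 and -0.25. Across the 1473 matched members, Spearman's rho between span and ratio was 0.45 for Brg1 in 22Rv1, 0.48 for Sfpq and 0.15 for Brg1 in LNCaP. Across 6865 names with both rows it was 0.17, 0.43 and 0.0081, close to the members with Sfpq and lower with Brg1. These are descriptions across genes of the same libraries, with no p. Over plain reads alone the members over 100 kb were at 0.41 with Brg1 in 22Rv1 and 0.31 in LNCaP.

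**Figure D2:**
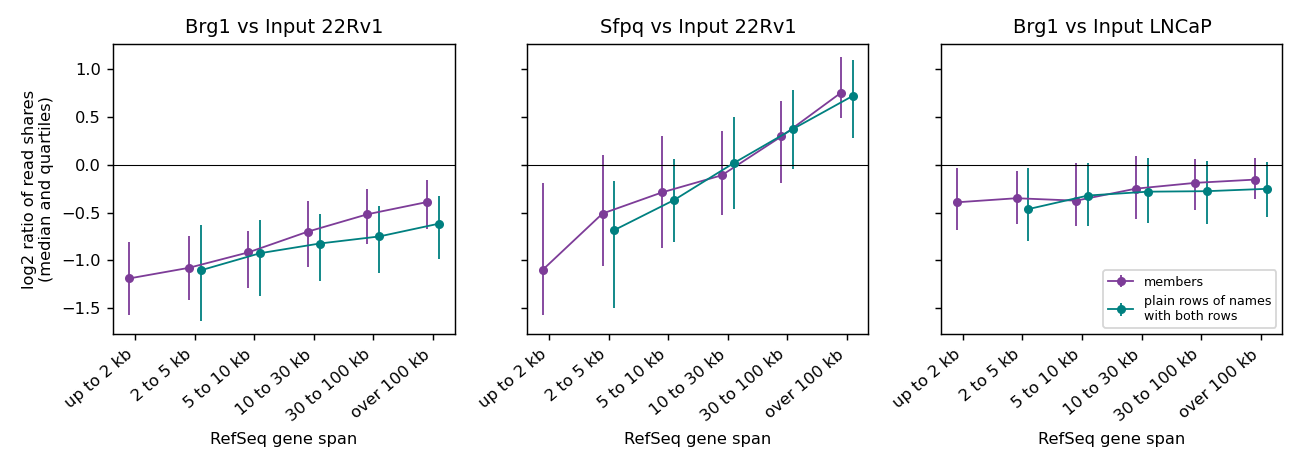
Log2 ratio of read shares (y axis; point, median; bar, quartiles) by RefSeq gene span (x axis) for members and for plain rows of names with both rows, in 3 comparisons; bins with under 20 genes are not drawn. Medians climb with span from -1.10 to 0.76 with Sfpq and from -1.19 to -0.39 with Brg1 in 22Rv1. Over 100 kb the names with both rows lie at 0.72 with Sfpq, near the members, and at -0.61 with Brg1 in 22Rv1, below them.

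SMARCA4, which encodes Brg1 itself, was the member most over-represented with the Brg1 antibody. Its levels in 22Rv1 were 12446 and 16356 RPM with Brg1, 486 and 492 with Sfpq, 310 and 296 in input and 262, 265 and 308 with IgG. In LNCaP they were 12763 and 10406 with Brg1 and 211 and 218 in input, but IgG library A was at 7212 (160 reads) and B at 194 (9 reads). The Brg1 libraries were far above the inputs in both lines, and 1 LNCaP IgG library shared that height. The fitted log2 ratio was 5.55 (SE 0.17, limma adjusted p = 4.99e-11) in 22Rv1 and 5.74 (SE 0.29) in LNCaP. With Sfpq it was 0.69 (SE 0.17, limma adjusted p = 0.00283).

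Long noncoding RNAs went both ways. Of the 19 members of this biotype, 7 were higher and 8 lower with Brg1 in 22Rv1, 7 higher and 6 lower in LNCaP, and 6 higher and 9 lower with Sfpq. Counted over plain reads alone, 8 were higher and 6 lower with Brg1 in 22Rv1. For this and each list below, the shares over all 1487 members were 76.0% lower and 2.76% higher with Brg1 in 22Rv1. They were 34.2% and 25.9% with Sfpq, and 18.1% and 2.62% with Brg1 in LNCaP. KCNQ1OT1, an imprinted antisense transcript that stays on chromatin, was at 414 and 392.3 RPM with Brg1 in 22Rv1 against 65.1 and 65.8 in input, and at 80.4 and 103 with Sfpq. In LNCaP it was at 292 and 296 with Brg1 against 72.6 and 66.6 in input. The log2 ratios were 2.604 (SE 0.14, limma adjusted p = 1.32e-08) and 2.06 (SE 0.26, limma adjusted p = 2.98e-13). Non-specific IgG also held much KCNQ1OT1, at 251, 254 and 69.3 in 22Rv1, where libraries A and B lay far above both inputs and C close to them. The LNCaP IgG libraries held it at 586 and 410 RPM, above both Brg1 libraries and both inputs, but on only 13 and 19 reads. In the fit of all groups its log2 ratio of IgG to input in LNCaP was 2.80 (limma adjusted p = 0.00105).

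NEAT1, the scaffold of paraspeckles, was higher with Brg1 in both lines and with Sfpq. In 22Rv1 it stood at 1095 and 1088 RPM with Brg1, 774 and 981 with Sfpq, 447 and 379 in input and 1478, 1537 and 739 with IgG, the last being the highest group. In LNCaP it stood at 3329 and 3565 with Brg1 and 1628 and 1378 in input, and the IgG libraries held 22 and 45 reads. The log2 ratio to input was 1.40 with Brg1 and 1.08 with Sfpq in 22Rv1, and 1.20 with Brg1 in LNCaP (limma adjusted p = 2.70e-06, 4.65e-05 and 0.000770).

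MALAT1, an abundant nuclear RNA of speckles, parted the antibodies. In 22Rv1 it was at 6593 and 5801 RPM with Brg1, 1275 and 1246 with Sfpq, 2614 and 2738 in input and 4616, 4420 and 2449 with IgG. No library of one antibody overlapped the input or the other antibody, and the log2 ratio to input was 1.21 with Brg1 and -1.08 with Sfpq (limma adjusted p = 4.18e-05 and 0.000144). In LNCaP the Brg1 libraries (15956 and 19624) overlapped the inputs (16406 and 13137), at a log2 ratio of 0.27 (limma adjusted p = 0.605).

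NORAD, a mainly cytoplasmic RNA that binds Pumilio proteins, was named after its values were seen. It was at 70.0 and 75.1 RPM with Brg1, 869.5 and 902 with Sfpq and 344 and 277 in input of 22Rv1, with IgG spread from 108 to 805. In LNCaP it was at 97.0 and 67.7 with Brg1 against 213 and 257. Brg1 was below and Sfpq above the input with no overlap: the log2 ratios were -2.07 and 1.52 in 22Rv1 and -1.52 with Brg1 in LNCaP (limma adjusted p = 4.77e-08, 1.10e-06 and 2.43e-07).

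MIR663AHG, the host gene shown above, was at 38.9 and 40.5 RPM with Brg1, 0.840 and 1.496 with Sfpq, 12.9 and 2.56 in input and 77.5, 123.3 and 6.11 with IgG of 22Rv1. In LNCaP it was at 8.79 and 11.98 with Brg1 and 2.55 and 2.40 in input. The row of MIR663A itself stood at 27.2 and 25.9 with Brg1 against 11.1 and 8.23 in 22Rv1 input and at 31.9 and 27.6 against 12.05 and 12.8 in LNCaP. Brg1 was above input for both rows in both lines, and 2 of the 3 IgG libraries of 22Rv1 were higher still. The log2 ratios with Brg1 were 2.53 and 1.70 for the host and 1.39 and 1.19 for the hairpin row, in 22Rv1 and LNCaP, each past the threshold.

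Of the 5 members named SNHG, for small nucleolar RNA host gene, 4 were lower with Brg1 in 22Rv1, 4 with Sfpq and 2 with Brg1 in LNCaP. Over all members 76.0%, 34.2% and 18.1% were lower, and the tally of SNHG names was made after values were seen. SNHG5 had log2 ratios of -2.13 with Brg1 and -2.23 with Sfpq, and SNHG8 had -1.76 and -2.04, both past the threshold. SNHG8 was also lower with Brg1 in LNCaP, at -1.41. SNHG14 was the one not called in any of these, at -0.44 and 0.51 in 22Rv1 and -0.49 in LNCaP (limma adjusted p = 0.102, 0.0647 and 0.146).

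**Figure D3:**
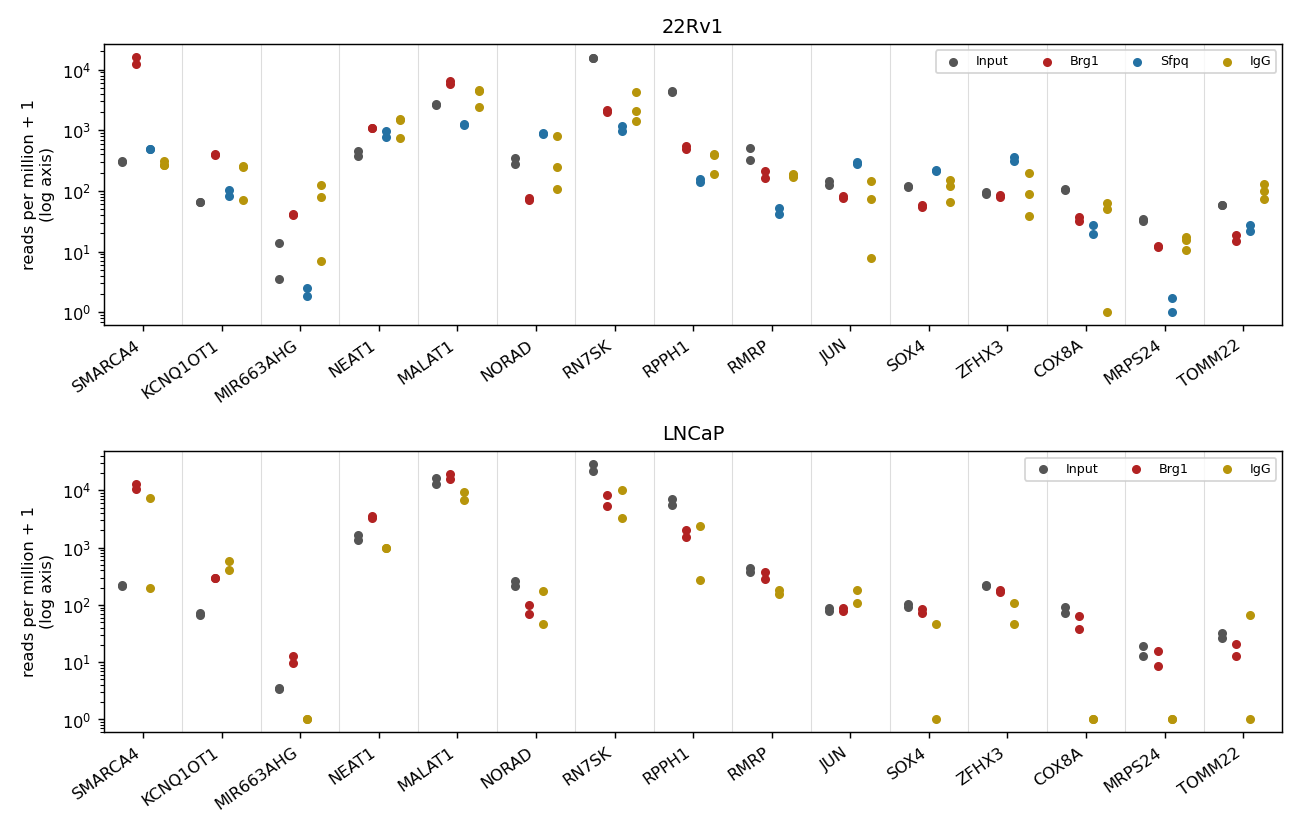
RPM plus 1 (log axis) of 15 members in every library of 22Rv1 (top) and LNCaP (bottom); each point is a library and colours are the groups. KCNQ1OT1 and MIR663AHG are high with Brg1 and in some IgG libraries, NORAD is low with Brg1 and high with Sfpq, and RN7SK, RPPH1 and RMRP fall below input in both precipitates of 22Rv1.

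Small structured noncoding RNAs, most of which work inside ribonucleoprotein particles, were the group lowest with Sfpq. Of 10 members, 8 were lower with Brg1 in 22Rv1, 5 were lower with Brg1 in LNCaP and 10 with Sfpq, at median log2 ratios of -1.15, -0.64 and -2.60, and the rest did not pass the threshold. Counting plain reads only, Brg1 in 22Rv1 left 3 lower and 1 higher, while all 10 remained lower with Sfpq. RN7SK, which holds the elongation factor P-TEFb in an inactive complex, was at 15624 and 15418 RPM in 22Rv1 input, 2126 and 1978 with Brg1, 1157 and 967 with Sfpq and 2072, 1402 and 4274 with IgG. In LNCaP it was at 21905 and 28818 in input, 8217 and 5325 with Brg1 and 3291 and 10044 (73 and 465 reads) with IgG. Every precipitate lay below every input. The log2 ratios were -2.92 (Brg1, 22Rv1), -3.87 (Sfpq) and -1.93 (Brg1, LNCaP), with limma adjusted p of 4.22e-08, 5.15e-09 and 1.63e-06.

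RPPH1, the RNA of the tRNA-processing RNase P, behaved alike: 4500 and 4235 RPM in 22Rv1 input, 552 and 488 with Brg1 and 141 and 160 with Sfpq, at log2 ratios of -3.07 and -4.85 (limma adjusted p = 3.83e-09 and 2.21e-11). RMRP, the RNA of RNase MRP, was at 514 and 324 in input, 215 and 164 with Brg1 and 50.6 and 41.1 with Sfpq. Its log2 ratios were -1.11 and -3.13 in 22Rv1, and -0.31 (limma adjusted p = 0.400) with Brg1 in LNCaP. BCYRN1, a cytoplasmic RNA of Alu origin, was at 28.2 and 22.5 in 22Rv1 input against 2.55 and 2.54 with Brg1, and at 18.004 and 24.8 in LNCaP input against 3.77 and 3.18. Between the antibodies, 9 of the 10 members were higher with Brg1 than with Sfpq, RPPH1 by 1.78 and RMRP by 2.02 on the log2 scale. In that comparison 6.93% of all members and 40.1% of all rows were higher. Over plain reads alone all 10 were higher, beside 647 of the 1487 members. RN7SK and BCYRN1 have many near copies in the genome, so how their reads were assigned is uncertain.

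Among nuclear copies of mitochondrial genes, MTND1P23 had the lowest Brg1 ratio of all members in both lines. It was at 124 and 163 RPM in 22Rv1 input, 2.57 and 8.46 with Brg1 and 31.1 and 13.6 with Sfpq, and in LNCaP at 377 and 450 against 59.2 and 19.6. The log2 ratios with Brg1 were -4.62 and -3.55. MTATP6P1 was at 66.8 and 70.0 in 22Rv1 input, 8.94 and 11.2 with Brg1 but 217 and 213 with Sfpq, a log2 ratio of -4.29 between Brg1 and Sfpq (limma adjusted p = 9.51e-11). MTND2P28 had log2 ratios of -2.43 with Brg1 in 22Rv1 and -1.85 in LNCaP, and 0.25 with Sfpq (limma adjusted p = 0.422). These pseudogenes are near-identical to the mitochondrial genome, so their reads may be mitochondrial RNA.

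As shares of all reads, genes of the oxidative phosphorylation machinery were mostly lower with both antibodies in 22Rv1. Of 14 members named for cytochrome c oxidase, complex III or ATP synthase, 13 were lower with Brg1 in 22Rv1, 13 with Sfpq and 5 with Brg1 in LNCaP, at medians of -1.41, -1.75 and -0.49. Over all members 76.0%, 34.2% and 18.1% were lower in these comparisons. The 14 include the pseudogene COX6A1P2. COX8A, a small oxidase subunit, was at 103 and 107 RPM in 22Rv1 input, 31.2 and 36.7 with Brg1 and 26.6 and 18.4 with Sfpq. In LNCaP it was at 72.3 and 90.2 in input and 63.0 and 36.2 with Brg1. COX6A1 was at 127 and 140 in 22Rv1 input, 60.4 and 61.2 with Brg1 and 48.2 and 34.3 with Sfpq, while in LNCaP its log2 ratio was -0.26 (limma adjusted p = 0.477). ATP5IF1, the inhibitor of the ATP synthase, had log2 ratios of -0.79, -1.15 and -0.49, the last with a limma adjusted p of 0.134. Counting plain reads only, Brg1 in 22Rv1 left 8 of the 14 lower and 1 higher, and Brg1 in LNCaP left 2 higher.

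Mitochondrial ribosomal proteins followed, with 25 of 27 members lower with Brg1 in 22Rv1, 16 with Sfpq and 3 with Brg1 in LNCaP (medians -1.002, -0.73 and -0.25). MRPS24, of the small subunit, was nearly absent with Sfpq, at 0.700 and 0 RPM against 30.5 and 33.0 in input and 10.9 and 11.3 with Brg1. MRPS16 was at 52.6 and 55.6 in 22Rv1 input, 15.3 and 15.5 with Brg1 and 44.0 and 32.5 with Sfpq. MRPL51 and MRPL12, of the large subunit, had log2 ratios of -0.93 and -1.29 with Brg1 and -1.11 and -0.77 with Sfpq in 22Rv1. With Brg1 in LNCaP they had -0.29 and -0.12, with limma adjusted p of 0.409 and 0.770. Over plain reads alone 4 of the 27 stayed lower with Brg1 in 22Rv1 and 21 were lower with Sfpq, and the LNCaP median turned to 0.21 with 4 higher.

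Of 11 members of the mitochondrial import machinery, all were lower with Brg1 in 22Rv1, 6 were lower and 1 higher with Sfpq, and 5 were lower with Brg1 in LNCaP. TOMM22, a receptor of the outer membrane translocase, was at 56.6 and 57.9 RPM in 22Rv1 input, 14.0 and 17.9 with Brg1 and 26.1 and 20.7 with Sfpq, but at 71.9, 129 and 97.8 with IgG. TOMM6, a small subunit of the same translocase, had log2 ratios of -1.71, -1.60 and -1.13. TIMM13, an intermembrane space chaperone, had -1.19 with Brg1 but 0.14 with Sfpq (limma adjusted p = 0.495). With plain reads only, 5 of the 11 were lower with Brg1 in 22Rv1 and 2 in LNCaP.

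Members of other housekeeping complexes were also mostly lower with Brg1 in 22Rv1. So were 76.0% of all members and 76.4% of plain rows of names with both rows. The 7 members named for Sm and LSm proteins, the ring proteins of spliceosomal and decay RNPs, include the pseudogene SNRPEP4. Among the 7, 5 were lower with Brg1 in 22Rv1, 5 with Sfpq and 2 in LNCaP, where the median of -0.38 became 0.08 over plain reads. SNRPD2 was at 116 and 97.2 RPM in 22Rv1 input, 40.2 and 48.9 with Brg1 and 43.6 and 33.5 with Sfpq, and SNRPE had log2 ratios of -0.69 and -1.51. As shares of plain reads, 2 of the 7 were lower and 1 higher with Brg1 in 22Rv1. SNRPB2 stood near 0, at -0.19 with Brg1 and 0.13 with Sfpq (limma adjusted p = 0.409 and 0.598). Of 12 RNA polymerase subunits 10 were lower and 1 higher with Brg1 in 22Rv1, 8 lower and 1 higher with Sfpq, and 3 lower and 1 higher in LNCaP, where the median of -0.40 became 0.06 over plain reads. POLR2A, the catalytic subunit of polymerase II, was at 317 and 347 in 22Rv1 input, 217 and 267 with Brg1 and 500 and 489 with Sfpq, and POLR1D had log2 ratios of -1.11 and -0.60. With plain reads only, the 12 divided into 3 lower and 3 higher with Brg1 in 22Rv1, 1 lower and 3 higher in LNCaP, and 9 lower and 1 higher with Sfpq.

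POLR2J3 belongs to the duplicated POLR2J family, whose reads may be shared among copies. As a share of all reads, it was the only polymerase member called higher with Brg1 in each line. It was at 193 and 182 RPM with Brg1, 62.0 and 58.9 with Sfpq and 122 and 116.8 in input of 22Rv1, and at 57.8 and 64.8 with Brg1 against 30.6 and 40.2 in LNCaP. Its log2 ratios were 0.65 and 0.78 with Brg1 and -0.97 with Sfpq (limma adjusted p = 0.000431, 0.0122 and 1.91e-05).

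Members with PSM names, of proteasome subunits, activators and assembly factors (among them PSME1, PSME2, PSMD10 and PSMG3), differed between the lines in their values. Of 7 members 6 were lower with Brg1 in 22Rv1 and 4 with Sfpq, at medians of -0.64 and -0.54. In LNCaP 1 was lower with Brg1, and the median was 0.41, which became -0.95 at the deposited scaling. With plain reads only it became 0.88, with 6 of the 7 higher and 1 lower, and in 22Rv1 the Brg1 median became 0.17 with 1 lower. PSMB4 was at 61.6 and 76.8 RPM with Brg1 against 118 and 124 in 22Rv1 input, and at 132 and 98.2 against 80.8 and 98.8 in LNCaP, where the libraries overlapped. PSMD4, the ubiquitin receptor, and PSMB6, a catalytic subunit, had log2 ratios of -0.58 and -0.64 in 22Rv1 and of 0.44 and 0.41 in LNCaP, the latter with limma adjusted p of 0.183 and 0.224. The 2 lines were tested in separate tables and their difference was not tested.

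Translation factors were mixed: of 10 members 7 were lower with Brg1 in 22Rv1, 3 lower and 2 higher with Sfpq, and 1 lower and 1 higher in LNCaP. These 10 include the pseudogenes EEF1A1P5, EIF1AXP1 and EIF2S2P4. The 1 higher in LNCaP was EIF2S2P4, whose reads may belong to its parent gene. Over plain reads alone the Brg1 medians turned from -0.66 to 0.14 (3 lower, 1 higher) and from -0.05 to 0.39 (4 higher). EIF5A was at 137 and 155 RPM with Brg1, 222 and 198 with Sfpq and 367 and 349 in input. EEF1B2, a nucleotide exchange factor, had log2 ratios of -1.71 with Brg1 and -1.74 with Sfpq, and -0.78 with Brg1 in LNCaP. EEF1A2 had -0.69 with Brg1 in 22Rv1, and in LNCaP, where its input was at 337 and 396 against 47.6 and 49.6 in 22Rv1, it had 0.47 (limma adjusted p = 0.175).

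Short transcription factor genes parted the 2 antibodies. All 7 members of the AP-1, immediate early and C/EBP list were lower with Brg1 in 22Rv1, at a median of -0.77. With Sfpq 4 were higher and in LNCaP 1 was lower, at medians of 0.43 and -0.16. The 7 include SERTAD3, whose name belongs to none of these families. JUN, an AP-1 subunit from a gene without introns, was at 74.98 and 83.0 RPM with Brg1, 296 and 281 with Sfpq and 125 and 147 in input of 22Rv1. Its log2 ratios were -0.77 (SE 0.14) with Brg1 and 1.09 (SE 0.14) with Sfpq (limma adjusted p = 0.000163 and 1.15e-05), and in LNCaP its Brg1 libraries (88.7 and 76.4) overlapped the inputs (78.0 and 86.7). JUND was lower with Brg1 in both lines, at -1.53 and -1.15, and stood at -0.24 with Sfpq (limma adjusted p = 0.294). CEBPB had -0.68 with Brg1 and 0.43 with Sfpq (limma adjusted p = 0.00411 and 0.0499). The Brg1 median turned to 0.05 over plain reads alone, with 2 lower, the LNCaP median to 0.27 over plain reads, and the Sfpq median to -0.07 at the deposited scaling, where 0 were higher. As shares of all reads, 25.9% of all members and 42.8% of plain rows of names with both rows were higher with Sfpq.

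Of 5 SOX, FOX and bHLH members, 4 were lower with Brg1 in 22Rv1 and 4 higher with Sfpq, at medians of -1.13 and 0.90, and in LNCaP the median was -0.32. Counting plain reads only, 3 were lower and 1 higher with Brg1 in 22Rv1, 3 were higher with Sfpq, and the LNCaP median became 0.15. At the deposited scaling 1 was higher with Sfpq, with a median of 0.38. SOX4, a developmental factor from a gene without introns, was at 53.8 and 57.0 RPM with Brg1, 224 and 212 with Sfpq and 118 and 115 in input. SOX12, of the same SOX group, had log2 ratios of -1.27 and 0.29, the latter with a limma adjusted p of 0.119. FOXP1, at a span of 629271 bases the longest of the 5, was at 34.8 and 28.4 with Brg1, 80.3 and 83.0 with Sfpq and 36.3 and 40.9 in input, and its Brg1 ratio of -0.29 had a limma adjusted p of 0.105. Set directly against each other, Brg1 was below Sfpq for all 7 and all 5 of these factors, at medians of -1.41 and -1.96. Over plain reads alone 4 of the 7 and all 5 were past the threshold. As shares of all reads, 56.3% of all members were lower in this comparison, at a median of -0.59. So were 76.6% of plain rows of names with both rows (median -1.02) and 38.1% of all rows. Over plain reads alone 330 of the 1487 members were lower.

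Of 8 Frizzled and other G-protein-coupled receptors, 7 were lower and 1 higher with Brg1 in 22Rv1, 2 were higher with Sfpq (median 0.08, or -0.43 at the deposited scaling), and 4 were lower with Brg1 in LNCaP. FZD5, a Wnt receptor, was at 22.2 and 28.1 RPM in input, 41.0 and 51.7 with Sfpq and, with a wide spread, 15.5 and 3.09 with Brg1, and its Sfpq ratio of 0.86 had a limma adjusted p of 0.0835. ADRA2A, an adrenergic receptor, had log2 ratios of -1.55 and -0.99 with Brg1 in 22Rv1 and LNCaP and 0.15 with Sfpq (limma adjusted p = 0.632). GPR137 had -1.08, -0.46 and -0.24, of which the first was past the threshold. Over plain reads alone 3 were lower and 1 higher with Brg1 in 22Rv1.

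Of 13 heat shock proteins and co-chaperones, 8 were lower with Brg1 in 22Rv1, 5 higher and 3 lower with Sfpq, and 6 lower and 1 higher with Brg1 in LNCaP; the Sfpq median of 0.24 became -0.25 at the deposited scaling. Over plain reads alone 3 were lower and 3 higher with Brg1 in 22Rv1 (median -0.02, from -0.82), and in LNCaP the balance turned to 3 higher (median -0.04, from -0.49). HSPA1B, an inducible HSP70 with a near-identical neighbour, was the one higher in LNCaP as a share of all reads, at 295 and 209 RPM against 123.2 and 147 in input (log2 ratio 0.88, limma adjusted p = 0.00533). In 22Rv1 its Brg1 libraries (139 and 174) were below the inputs (178 and 182) by less than the test could call (-0.21, limma adjusted p = 0.189). HSPB1 had -0.82 with Brg1 and -0.65 with Sfpq in 22Rv1, and DNAJB1, a J-domain partner of HSP70, had -0.88 and 0.50. The Sfpq ratio of DNAJB1 turned to -0.015 at the deposited scaling.

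Other lists were fixed by name rather than function. Their Brg1 counts in 22Rv1 stand beside 76.0% of all members lower. Of 33 open reading frame names 27 were lower with Brg1 in 22Rv1, 13 lower and 10 higher with Sfpq (median -0.08, or 0.08 with TMM), and 9 lower in LNCaP. As shares of plain reads they were 9 lower and 4 higher with Brg1 in 22Rv1 and 3 lower and 2 higher in LNCaP. C12orf45 had log2 ratios of -0.47, 0.87 and -0.81, each past the threshold, and C8orf33 and C1orf35 had -1.07 and -0.43 with Brg1 in 22Rv1. Of 20 TMEM names 17 were lower and 1 higher with Brg1 in 22Rv1, 11 lower and 2 higher with Sfpq, and 9 lower and 1 higher in LNCaP. The Brg1 counts over plain reads alone were 7 lower and 1 higher, and 3 lower and 1 higher. TMEM259 had -0.96, -0.66 and -0.64, TMEM198B -0.86, -0.74 and -0.77, and TMEM8B -0.67, 0.39 and -0.03, the last with a limma adjusted p of 0.946. S100A11 and S100A13, calcium-binding proteins, were lower with Brg1 (-1.01 and -1.001) and Sfpq (-0.80 and -1.41) in 22Rv1, and over plain reads alone their Brg1 median went from -1.004 to -0.27, with neither called, while both stayed lower with Sfpq. No clustered protocadherin was a member.

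**Figure D4:**
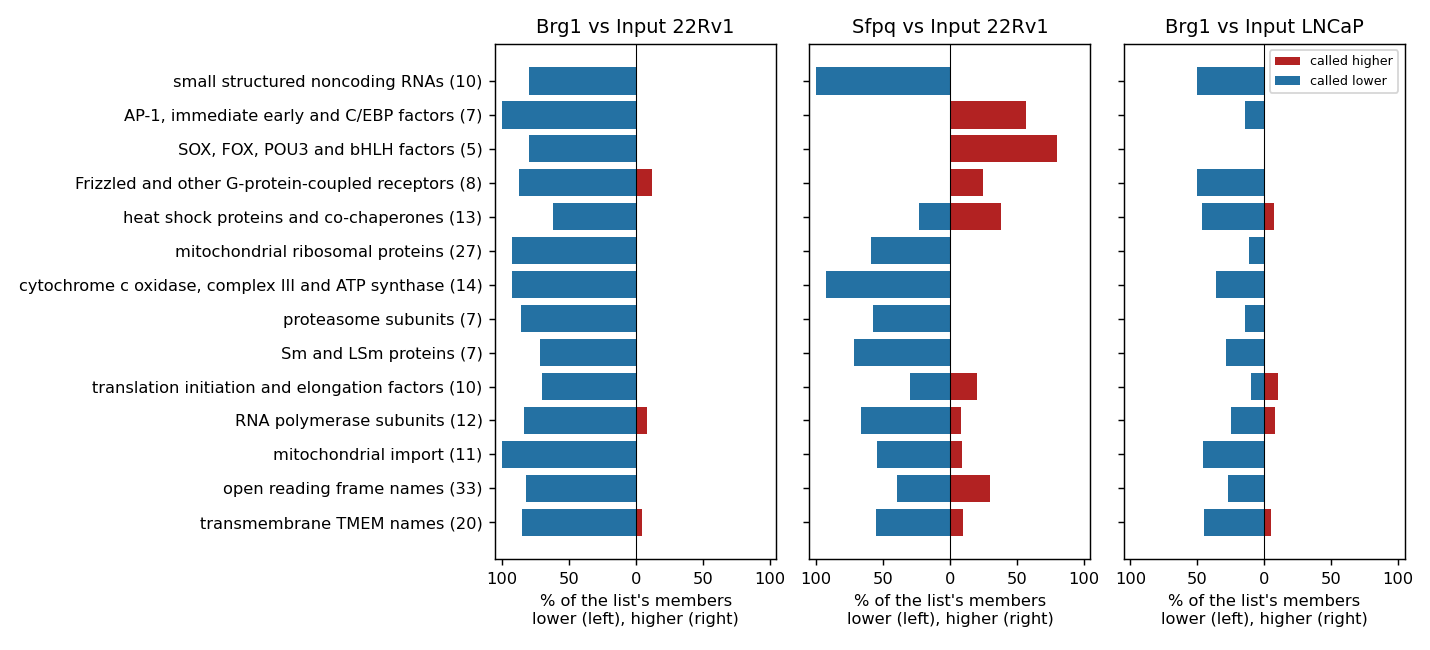
Percent of each list's members (number in brackets) called lower (blue, to the left) or higher (red, to the right) against input at a limma adjusted p under 0.05, in 3 comparisons; lists of under 5 members are not drawn. With Brg1 in 22Rv1 nearly all bars point left, while with Sfpq the transcription factor lists point right (4 of 7 and 4 of 5 higher) and the oxidase and ATP synthase list left (13 of 14 lower). At the deposited scaling the transcription factor lists became 0 of 7 and 1 of 5 higher.

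The members most over-represented with Sfpq included large regulators. ZFHX3, a zinc-finger homeobox factor with 1109046 bases of span, was at 316 and 361 RPM with Sfpq, 89.4 and 95.5 in input and 79.0 and 84.5 with Brg1 (log2 ratio 1.86 with Sfpq, limma adjusted p = 1.41e-07). Its relative ZFHX4 was at 398 and 404 with Sfpq against 97.3 and 101 in input. ZKSCAN2, a zinc-finger factor, was at 128 and 124 against 33.2 and 33.0, and lower with Brg1 at 17.9 and 20.8. LRRC37A9P, a pseudogene of a duplicated family, had the highest ratio at 2.14, and GPT, alanine aminotransferase, was at 19.3 and 35.6 against 8.02 and 4.24. LRRC37A9P and GPT span 1301 and 4105 bases, so the top was not made of long genes alone.

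PRRC2B, among the 8 members with the most input reads in 22Rv1, was at 1622 and 1685 RPM with Sfpq, 647 and 665 in input and 382 and 420 with Brg1. DYNC1H1, the dynein heavy chain, was at 1383 and 1234 with Sfpq, 813 and 846 in input and 554 and 664 with Brg1. Both were above input with Sfpq and below it with Brg1, at log2 ratios of 1.33 and -0.71 for PRRC2B and 0.65 and -0.45 for DYNC1H1, all past the threshold. The actins ACTB and ACTG1, near-identical in their coding sequence, were at 939 and 1015 and at 1254 and 1282 in 22Rv1 input, 603 and 743 and 711 and 847 with Brg1. With Sfpq their log2 ratios were -0.11 and -0.34 (limma adjusted p = 0.582 and 0.0717), the first of which turned positive under TMM and median-of-ratios scaling (0.0469 and 0.114).

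The remaining members at the ends of the Brg1 comparisons were of low level. TNRC18P1, a pseudogene, was at 12.7 and 11.5 RPM with Brg1 against 1.57 and 0.998 in 22Rv1 input and at 8.95 and 12.6 against 1.42 and 2.93 in LNCaP. HACD4, an acyl-CoA dehydratase, was at 11.6 and 9.41 against 2.28 and 1.37 in 22Rv1, while IgG library B reached 66.8. The row RF01871, which matched no RefSeq gene, was at 22.6 and 34.2 against 8.36 and 4.93 in LNCaP. TCAF1P1 was at 15.1 and 24.97 with Brg1 against 0.709 and 8.66 in LNCaP input, and in 22Rv1 it had a log2 ratio of -0.34 (limma adjusted p = 0.246). TMED1, a cargo receptor of the secretory pathway, was at 1.58 and 2.05 with Brg1 against 16.6 and 17.8 in 22Rv1 input, with a log2 ratio of -2.70, and at -0.93 in LNCaP.

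Brg1 against input could be read in both lines. Of the members, 259 were called lower in both, 22.9% of the 1130 in 22Rv1 and 96.3% of the 269 in LNCaP. The shares were 26.0% and 97.2% in names with both rows and 29.3% and 87.7% over the 19400 rows in both tables, and 76.0% of members were lower in 22Rv1 in any case. Higher in both were 20 members, 48.8% of 41 and 51.3% of 39, against 24.7% and 23.3% in names with both rows and 45.1% and 93.1% over all rows. They included SMARCA4, KCNQ1OT1, NEAT1, MIR663A, MIR663AHG, MIR29B2CHG, POLR2J3 and the repeat-borne DUX4 and DBET, whose copies cannot be told apart. Across the 1487 members the log2 ratios had a Spearman's rho of 0.63, and across names with both rows 0.69, as a description across genes.

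Libraries on opposite sides were seen in 126 members (8.47%), 115 of them below input in 22Rv1 and above it in LNCaP, against 5.3% of the 19400 rows in both tables and 9.45% of names with both rows. Called lower in 22Rv1 and higher in LNCaP were 8 members: CD3EAP, EIF2S2P4, EME2, HNRNPH2, PGK1, TBCC, TUBB4B and UBB. They were 20.5% of the 39 called higher in LNCaP, while 76.0% of all members were lower in 22Rv1. The same share over all rows was not worked out, so the 8 cannot be read as a trait of the members. TBCC, a tubulin folding cofactor, was at 4.84 and 7.29 RPM with Brg1 against 11.4 and 9.10 in 22Rv1, and at 14.9 and 11.1 against 7.09 and 7.59 in LNCaP. CD3EAP, a polymerase I subunit now named POLR1G, was at 12.4 and 14.2 against 19.9 and 20.7, and at 13.7 and 10.2 against 8.08 and 4.66. The glycolytic ALDOA was at 226 and 261 against 330 and 373 in 22Rv1 and at 1079 and 767 against 589 and 696 in LNCaP, where its limma adjusted p was 0.160. Other scalings moved these LNCaP values below 0 (deposited scaling) or the 22Rv1 values above it (plain reads alone), and the difference between the lines was not tested.

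**Figure D5:**
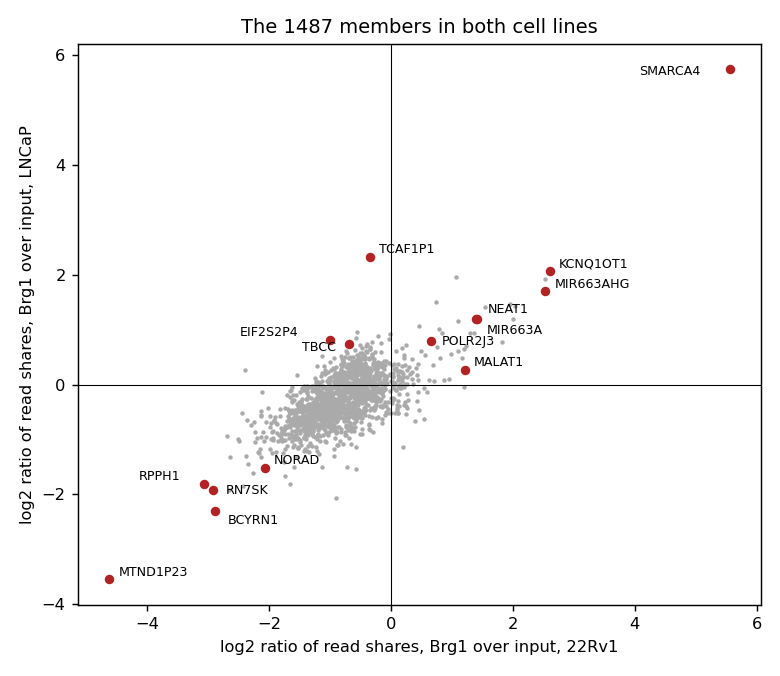
Log2 ratio of read shares, Brg1 over input, in 22Rv1 (x axis) and LNCaP (y axis) for the 1487 members; red points are named. SMARCA4 stands alone at 5.55 and 5.74, most of the cloud lies below 0 in both lines, and RN7SK, RPPH1, BCYRN1 and MTND1P23 are at its lower end.

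IgG served as the non-specific precipitate. In 22Rv1, 164 members were lower and 2 higher with IgG than in input, against 8.74% and 0.382% of all rows, at a median log2 ratio of -1.47. In LNCaP 792 were lower and 6 higher, against 44.0% and 3.14% of all rows, at a median of -3.14, where most members had no or few reads. RN7SK and RPPH1 were thus below input with every antibody in 22Rv1, IgG included (IgG log2 ratios of -2.74 and -3.81, limma adjusted p = 0.00447 and 0.000957), and the part of non-specific recovery in the values above was not tested.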

How the data were processed

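RNA immunoprecipitation libraries and inputs of 22Rv1 and LNCaP were analysed from the 2 tables that the authors deposited, 1 per line. The deposited unit is a signal: tested on the tables, 100% of each library's values were whole multiples, within 0.001 read, of its smallest positive value, so the authors multiplied whole reads by 1 factor per library, and how it was set is not given in the sources used here. The submitters' processing notes name STAR 2.6, Salmon 0.8.2, deepTools 2.5.2, DESeq2 and build hg38, with no role. Reads were recovered by that division and expressed as RPM (reads for every 1000000 of the library). RefSeq (GRCh38.p14) gave spans, biotypes and sequences, and 14 members matched nothing.

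The test was limma 3.58.1 (lmFit, eBayes with trend) in R 4.3.3 on log2(RPM + 1), with no filter, so every member was tested, without IgG (6 libraries in 22Rv1, 4 in LNCaP), and with Benjamini-Hochberg adjustment over all 22542 or 22169 rows. Log2 ratios are on that scale and understate low genes. IgG was compared in a fit of all groups. Summed shares were tested by exact permutation over libraries. Intervals and floors cover counting error only. edgeR 4.0.16 on the recovered reads with library totals called 6297 rows higher and 9170 lower for Brg1 in 22Rv1, and DESeq2 1.42.0 was a further alternative. Scripts were tested on simulated data. No 2 libraries of the same group were duplicates: the lowest chi-square per degree of freedom between replicates was 2.46, for the shallow LNCaP IgG libraries. Libraries of different groups were not compared in this way.

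Members and lists were chosen with earlier results of these data known. Named genes were the 5 largest ratios in each direction per comparison with input (called, at 10 RPM or more in the higher group, libraries not overlapping), the 8 highest inputs per line, up to 3 of each of 17 lists by input, and 5 on opposite sides in the 2 lines.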

Additional observations from a re-analysis of the deposited data

Results flagged for a closer look

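For 9 of the named members both Brg1 libraries lay below both inputs in 22Rv1 and above both in LNCaP. Opposite sides, in either direction, held for 8.47% of members, 9.45% of names with both rows and 5.3% of rows in both tables. The log2 ratios in 22Rv1 and LNCaP were -0.54 and 0.45 for ACTB, -0.53 and 0.51 for ALDOA, -0.58 and 0.84 for CD3EAP, -0.45 and 0.24 for DYNC1H1, -1.01 and 0.82 for EIF2S2P4, -0.35 and 0.65 for ENO1, -0.59 and 0.62 for PPIAP22, -0.74 and 0.62 for SURF2 and -0.69 and 0.74 for TBCC. No test was made of the difference between lines, whose tables carry separate scaling. ACTB, ALDOA and ENO1 are abundant messages, EIF2S2P4 and PPIAP22 are processed pseudogenes whose reads may belong to their parent genes, and 5 of the 9 were named for lying on opposite sides.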

How the results depend on the processing

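The cause of each change below was not tested unless the alternative's construction gives it. Median log2 ratio of members, Brg1 in 22Rv1 (main -0.82): -0.65 with a pseudocount of 5, -0.61 with TMM, -0.65 with median-of-ratios factors, -1.30 at the deposited scaling, -0.0503 over plain reads alone, -0.64 with edgeR and TMM, -0.68 with DESeq2. Members higher went from 41 to 65 with TMM in limma or edgeR (65), 9 at the deposited scaling and 309 over plain reads, members lower from 1130 to 328 over plain reads, and the fit with all groups left 1 and 2. The Sfpq median (main -0.13) was 0.0144 with TMM, 0.0797 with median-of-ratios factors, -0.66 at the deposited scaling, -0.26 over plain reads, 0.0232 with edgeR and TMM, 0.0875 with DESeq2. There 21 were higher at the deposited scaling, and the fit with all groups gave 0 higher and 4 lower in limma (109 at an unadjusted p under 0.05). Brg1 in LNCaP (main 39 higher, 269 lower, -0.28): deposited scaling 2, 1414 and -1.67, plain reads 297, 53 and 0.17, no trend 24 and 163, DESeq2 120 lower, all groups 0 and 0 in limma (183 at an unadjusted p under 0.05). edgeR with library totals, a separate fit without the IgG libraries, called 38 and 243. Brg1 against Sfpq, added after the data were seen (main 103 higher, 837 lower, -0.59): pseudocount 5 -0.47, TMM -0.51, deposited scaling 43 and 437, plain reads 647, 330 and 0.31, all groups 4 and 24, DESeq2 -0.66. These scalings moved the median of all rows from -0.25 to -0.03 (TMM) for Brg1 in 22Rv1, from -0.19 to 0.02 (median-of-ratios) for Sfpq and from -0.08 to -1.46 (deposited) for Brg1 in LNCaP.

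Leaving out each library gave 29 to 42 members higher and 923 to 1159 lower for Brg1 in 22Rv1 (medians -0.86 to -0.76), 275 to 400 and 407 to 515 for Sfpq (-0.18 to -0.08), 8 to 51 and 13 to 436 for Brg1 in LNCaP (-0.41 to -0.15), and 81 to 125 and 739 to 860 for Brg1 against Sfpq (-0.67 to -0.53).

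With the replicate letter as a block, LNCaP gave 11 higher and 42 lower; in 22Rv1 the block gave 37 and 1115 for Brg1, 382 and 501 for Sfpq. The letters share only a letter: A minus B correlated at 0.02 between Brg1 and input and -0.15 between input and Sfpq in 22Rv1, and at -0.35 between Brg1 and input in LNCaP, where the crossed pairing (added after the data were seen) gave 114 and 530.

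Ratios of the summed share over plain reads, from deposited values, and without the 10 members of most input reads were 1.26, 0.531 and 0.838 (Brg1, 22Rv1), 0.814, 0.639 and 1.14 (Sfpq), and 1.23, 0.350 and 1.09 (Brg1, LNCaP). IgG gave 0.882 and 0.00332 in 22Rv1, and 1.002, 0.000278 and 0.702 in LNCaP, for the same alternatives. Leaving out SMARCA4 (added after the data were seen) gave 0.5525 for Brg1 in 22Rv1 and 0.7793 in LNCaP. With plain reads only as well, it gave 0.9803 and 1.082, 0.8114 for Sfpq, and 0.8809 and 0.9385 for IgG in 22Rv1 and LNCaP. Without SMARCA4 and the 10 members, Brg1 in 22Rv1 was at 0.6045, Sfpq at 1.138 and IgG in LNCaP at 0.635.

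Single genes reversed as follows. Over plain reads, Brg1 in 22Rv1: ACTB 0.28, ACTG1 0.12, ALDOA 0.29, ATP5IF1 0.0285, C12orf45 0.34, C1orf35 0.39, CD3EAP 0.21, CEBPB 0.12, DYNC1H1 0.38, EEF1A2 0.12, ENO1 0.47, JUN 0.0497, POLR2A 0.36, PPIAP22 0.22, PRRC2B 0.12, PSMB4 0.0130, PSMB6 0.17, PSMD4 0.24, SNRPE 0.0905, SURF2 0.0015, TBCC 0.0440, TMEM8B 0.14. At the deposited scaling, Brg1 in LNCaP: ACTB -0.93, ACTG1 -1.18, ALDOA -0.87, CD3EAP -0.43, DYNC1H1 -1.14, EIF2S2P4 -0.45, ENO1 -0.72, HSPA1B -0.49, MALAT1 -1.11, MIR663A -0.12, NEAT1 -0.17, POLR2J3 -0.57, PPIAP22 -0.74, SURF2 -0.68, TBCC -0.56; Sfpq: CEBPB -0.0718, DNAJB1 -0.0148, TMEM8B -0.12. ACTB with Sfpq was 0.0469 with TMM, 0.114 with median-of-ratios factors, 0.0491 with edgeR and TMM, 0.12 with DESeq2. PRRC2B in LNCaP was 0.0408 with TMM, 0.0175 with median-of-ratios factors, 0.43 over plain reads, 0.0454 with edgeR and TMM and 0.0197 with DESeq2, and from -0.16 to 0.0672 when single libraries were left out for PRRC2B; ACTG1 then ran from -0.0477 to 0.443. Of 152 single results, 110 reversed under none of the alternatives run. At 22184 and 46297 reads, depth limits the LNCaP IgG libraries to the most abundant members.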
